A study of Mus musculus with 27 samples.

Results

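The genes described here are 37 components of Toll-like receptor (TLR) and NOD receptor signalling, chosen by their symbols from the 23995 genes of the deposited table: 10 Toll-like receptors, the endosomal chaperone Unc93b1, 4 co-receptors, 5 adaptors, 11 kinases, ubiquitin ligases and their partners, 2 inhibitors and 4 genes of the NOD branch. Of the 37, 36 reached 10 or more in no fewer than 3 libraries and were tested. The exception was Sigirr, an inhibitory member of the receptor family, whose highest value in any library was 5.90. The data are bulk RNA-seq of primary microglia, shaken off mixed glial cultures made from the cortex of newborn mice, in 27 libraries. Wild-type cells came from C57BL/6J mice and the other cells from B6.Cg-Cnr2tm1Zim mice, labelled CB2-/-, in which Cnr2, the gene of the cannabinoid receptor CB2, is targeted throughout the body. Cells of each genotype were left unstimulated or were kept for 16 h with PolyI:C, with CpG (1 nmol/ml), or with LPS (100 ng/ml) and interferon-γ (IFN-γ, 20 ng/ml) at once. Unstimulated wild type has 6 libraries and each of the other 7 groups has 3. The study asked about the part of CB2 in microglial activation through TLR4, TLR3 and TLR9, and the comparisons here ask whether each ligand went with a change of its own receptor, and whether the members differed between unstimulated cells of the 2 genotypes.

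Toll-like receptors are membrane proteins with which microglia, the macrophages of the brain, sense microbial lipids, proteins and nucleic acids. Those at the cell surface bind lipopeptides, LPS and flagellin, and those in endosomes, which are folded and carried there with the help of UNC93B1, bind RNA and DNA. Most signal through the adaptor MyD88, IRAK kinases, the ubiquitin ligase TRAF6 and the TAK1 kinase complex to NF-kB, while TLR3, and TLR4 from endosomes, use the adaptor TRIF, TRAF3 and the kinase TBK1 to reach IRF3 and interferon-β. NOD1 and NOD2 are cytosolic sensors of bacterial peptidoglycan that signal through the kinase RIPK2.

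Library numbers form 3 runs, treated here as 2 series, and the split between the series runs through every comparison of responses between genotypes. The numbers 3012 to 3023, the first series, belong to the stimulated wild-type libraries and to replicates 1 to 3 of unstimulated wild type. The second series holds 2048 to 2059, all libraries labelled CB2-/-, and 2186 to 2188, replicates 4 to 6 of unstimulated wild type. Responses of wild type were therefore taken against replicates 1 to 3, and the resting genotypes were compared through replicates 4 to 6. The resting comparison lies within the second series, but its groups come from different runs of numbers, so genotype and run cannot be told apart there. In comparisons with stimulated cells, unstimulated wild type means replicates 1 to 3. For stimulated cells, genotype and series cannot be told apart, and neither can the library protocol if it followed the series, since the labels name 2 protocols without assigning them. LPS was always given with IFN-γ, so their effects cannot be told apart either, and "LPS" below means both. Nothing in the labels says whether replicates came from separate cultures or litters, so the spread that the p-values rest on may be technical. Cnr2 itself was detected in every library labelled CB2-/-, at 317, 411 and 454 without stimulus against 172, 231 and 203 in wild-type replicates 4 to 6. A value per gene does not show which part was deleted, so the genotype rests on the labels.

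Values are normalised counts as the authors deposited them. Their sum per library ran from 6341299 to 14151982, with 13628 to 20643 genes above 0. The highest sum was that of PolyI:C replicate 2 labelled CB2-/-. In wild type the sum moved with the stimulus. It was 6.51e+06 to 6.66e+06 in unstimulated replicates 1 to 3 and 6.64e+06 to 6.92e+06 with CpG. With LPS it was 9.32e+06 to 9.47e+06 and with PolyI:C 8.40e+06 to 9.47e+06. Changes are log2 fold changes ± SE of log2(value + 1), a scale on which changes of low genes come out too small. They come from 1 limma fit over 14668 genes with Benjamini-Hochberg (BH) adjustment, and a member is said to have risen or fallen when its adjusted p was under 0.05. In bulk RNA, fewer cells of a type and less RNA per cell cannot be told apart. All 8 microglial markers were found, and their sum moved with the contrasts. It was 69808 to 78244 in unstimulated wild-type replicates 1 to 3, 45086 to 59108 in replicates 4 to 6 and 43289 to 45984 in unstimulated libraries labelled CB2-/-. With LPS, PolyI:C and CpG it was 33299.8 to 34730.3, 34551 to 46963 and 42971 to 48031 in wild type and 22094 to 23894, 34427 to 36537 and 24946 to 25749 in libraries labelled CB2-/-, below the unstimulated range each time. The summed level of 8 astrocyte markers was 1539.6 to 2559.8 in unstimulated wild-type replicates 4 to 6 but 191 to 297 in unstimulated libraries labelled CB2-/-, and 6 fibroblast markers summed to 691 to 2475 and to 58.3 to 93.4 in the same groups. Both sums varied widely among wild-type libraries, from 35.1 to 2559.8 and from 12.1 to 2891. The sum of 6 neutrophil and monocyte markers was 2081 to 3131 in unstimulated wild-type replicates 1 to 3, 560.3 to 919 in replicates 4 to 6 and 539 to 671 in unstimulated libraries labelled CB2-/-. With LPS, PolyI:C and CpG it was 1454 to 1726, 2871 to 3470.4 and 1453 to 1941 in wild type and 1480.1 to 1565, 681 to 1024 and 1269 to 1430.2 in the others, and S100a9 was at 0 in every library of 7 of the 9 sets of 3 libraries. Camp and Ly6c2 were at 0 throughout some of these sets, and the other markers of this list were detected in every set. The part of these markers in the results was not tested.

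Tlr4 (chr4:66827584-66930284 in GENCODE M21 on GRCm38, the source of all gene positions here) encodes the receptor of LPS. Its normalised counts were 781, 788 and 758 in unstimulated wild-type replicates 1 to 3 and 245, 282 and 352 with LPS. In libraries labelled CB2-/- they were 1121, 892 and 913 without stimulus and 401, 514 and 434 with LPS. In both genotypes every LPS library lay below every unstimulated one. Tlr4 fell with LPS in wild type (log2 fold change -1.42 ± 0.22, adjusted p = 8.95e-06, limma, BH) and in libraries labelled CB2-/- (log2 fold change -1.12 ± 0.22, adjusted p = 3.56e-04, limma, BH). The difference between these responses did not pass the test (0.30 ± 0.31, adjusted p = 0.624, limma, BH), with a 95% interval of -0.33 to 0.94. It fell with the other ligands too. With PolyI:C the wild-type values were 303, 216 and 255 and with CpG 224, 232 and 194, both below the unstimulated range, and the changes of -1.60 ± 0.22 and -1.84 ± 0.22 passed the test (adjusted p = 1.58e-06 and 2.84e-07, limma, BH). No pair of stimuli passed the test for Tlr4 in wild type. Among libraries labelled CB2-/- CpG gave 372, 573 and 291 and a fall (-1.29 ± 0.22, adjusted p = 1.09e-04, limma, BH), while PolyI:C gave 783, 828 and 1205, which overlapped the unstimulated values. The PolyI:C change there was -0.07 ± 0.22 (95% interval -0.52 to 0.37), and the PolyI:C responses of the genotypes differed by 1.52 ± 0.31, adjusted p = 5.78e-04, limma, BH.

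Tlr3 (chr8:45395665-45411080) encodes the endosomal receptor of double-stranded RNA, for which PolyI:C is a synthetic ligand. It stood at 361, 336 and 317 in unstimulated wild-type replicates 1 to 3 and at 1758, 2416 and 2205 with PolyI:C. For libraries labelled CB2-/- it went from 552, 364 and 492 to 920.1, 927 and 998. Tlr3 thus rose with its own ligand in both genotypes, by 2.64 ± 0.21, adjusted p = 2.68e-10, limma, BH in wild type and by 1.03 ± 0.21, adjusted p = 0.00234, limma, BH in libraries labelled CB2-/-. The rise was smaller in the latter (difference -1.60 ± 0.30, adjusted p = 2.67e-04, limma, BH). LPS also went with higher Tlr3, at 791, 954 and 1049 in wild type and 1551, 1530.5 and 1480.2 in libraries labelled CB2-/-, and both changes passed the test (1.45 ± 0.21 and 1.72 ± 0.21; adjusted p = 4.81e-06 and 8.89e-07, limma, BH). In wild type Tlr3 was lower with LPS than with PolyI:C (-1.19 ± 0.21, adjusted p = 4.47e-04, limma, BH). In libraries labelled CB2-/- it was higher with LPS (0.68 ± 0.21, adjusted p = 0.036, limma, BH), but that call was lost when any 1 of the 6 compared libraries was left out, with adjusted p of 0.063 to 0.101 by the same method. CpG went the other way: wild-type values dropped to 81.0, 90.3 and 98.6 (-1.90 ± 0.21, adjusted p = 1.22e-07, limma, BH), below every other library, whereas those labelled CB2-/- were 298, 385 and 247 and did not pass the test (-0.60 ± 0.21, adjusted p = 0.0631, limma, BH). The CpG responses differed by 1.30 ± 0.30, adjusted p = 0.00507, limma, BH.

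Tlr9 (chr9:106222598-106226883) encodes the endosomal receptor of unmethylated CpG DNA. Unstimulated wild-type replicates 1 to 3 held 359, 439 and 436 and the CpG libraries 65.4, 49.4 and 47.8, the lowest Tlr9 values of the series. Among libraries labelled CB2-/- the values were 179.8, 155 and 133 without stimulus and 156, 169 and 167 with CpG, and the groups overlapped. Tlr9 fell with its own ligand in wild type (log2 fold change -2.91 ± 0.21, adjusted p = 8.22e-11, limma, BH) but showed no change past the threshold in libraries labelled CB2-/- (log2 fold change 0.08 ± 0.21, adjusted p = 0.892, limma, BH, 95% interval -0.35 to 0.52). The responses differed by 2.99 ± 0.30, adjusted p = 4.15e-07, limma, BH. All 3 unstimulated libraries labelled CB2-/- lay far below wild-type replicates 1 to 3, which belong to the other number series. Wild-type replicates 4 to 6, of their own series, held 173, 315 and 270.2 and overlapped them. Genotype and series cannot be told apart in the gap to replicates 1 to 3. LPS gave 485, 435 and 553 in wild type and 186, 226 and 205 in libraries labelled CB2-/-, and neither change passed the test. PolyI:C gave 189, 121 and 125 in wild type, a fall (-1.52 ± 0.21, adjusted p = 2.17e-06, limma, BH), and 148, 141 and 108 in libraries labelled CB2-/-, where the change did not pass (-0.24 ± 0.21, adjusted p = 0.598, limma, BH).

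**Figure D1:**
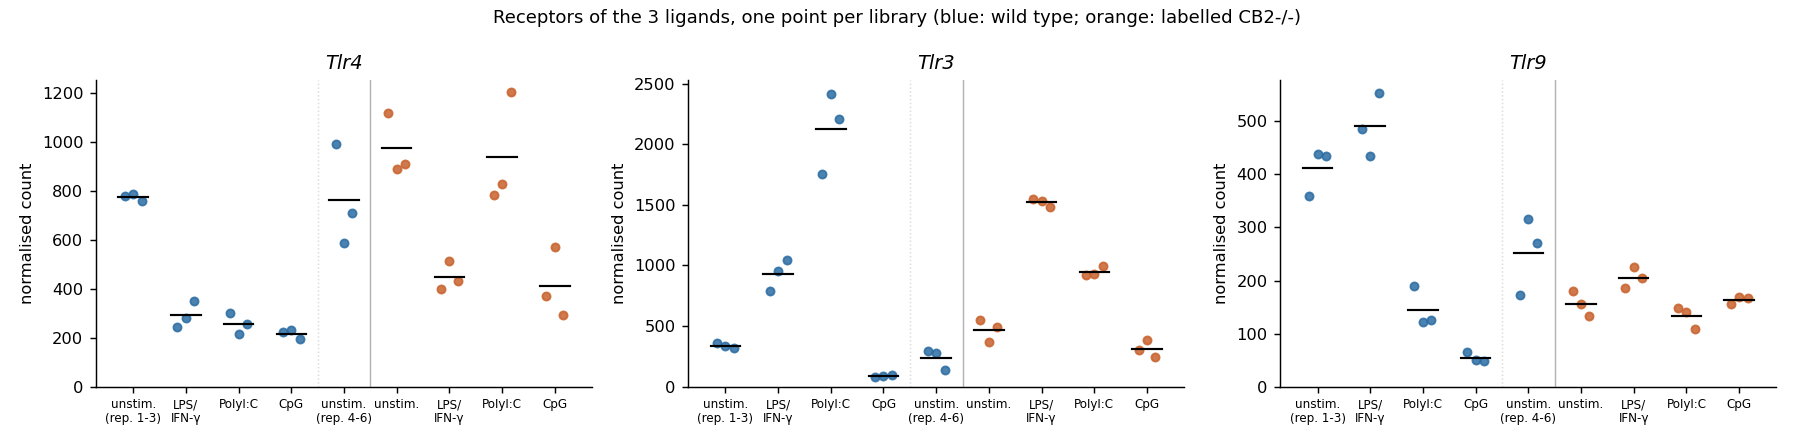
Normalised count (y axis, linear from 0) of Tlr4, Tlr3 and Tlr9 in each of the 27 libraries, by group (x axis); points are libraries, black bars are means of 3, blue is wild type and orange is labelled CB2-/-. Tlr4 is low with its ligand in both genotypes, Tlr3 is high with PolyI:C, and Tlr9 is low with CpG in wild type, at 65.4, 49.4 and 47.8, but not in libraries labelled CB2-/-.

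The promoter windows below, from 250 bases before to 50 bases after the gene start in the RefSeq table for GRCm38.p6, are shown for the receptors that moved with PolyI:C and CpG and for the pair of genes that rose in all 6 responses, Tlr1 and Myd88. Capitals mark matches, on either strand, to 2 motifs: GGG and CC with any 5 bases between them for NF-kB, and GAAA repeated with any 2 bases between the copies for the core of the interferon-stimulated response element (ISRE).
Tlr3: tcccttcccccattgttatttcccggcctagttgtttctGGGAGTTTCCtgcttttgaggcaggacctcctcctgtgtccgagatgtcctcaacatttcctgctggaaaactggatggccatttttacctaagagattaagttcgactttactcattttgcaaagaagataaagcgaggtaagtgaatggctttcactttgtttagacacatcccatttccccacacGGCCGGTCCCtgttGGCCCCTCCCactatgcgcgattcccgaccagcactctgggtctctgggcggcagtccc
Tlr9: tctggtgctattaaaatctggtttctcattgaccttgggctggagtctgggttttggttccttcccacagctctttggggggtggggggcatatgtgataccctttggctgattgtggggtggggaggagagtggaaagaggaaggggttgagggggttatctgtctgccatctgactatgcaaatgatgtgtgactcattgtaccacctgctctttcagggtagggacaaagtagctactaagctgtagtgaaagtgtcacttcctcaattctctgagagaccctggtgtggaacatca
Tlr1: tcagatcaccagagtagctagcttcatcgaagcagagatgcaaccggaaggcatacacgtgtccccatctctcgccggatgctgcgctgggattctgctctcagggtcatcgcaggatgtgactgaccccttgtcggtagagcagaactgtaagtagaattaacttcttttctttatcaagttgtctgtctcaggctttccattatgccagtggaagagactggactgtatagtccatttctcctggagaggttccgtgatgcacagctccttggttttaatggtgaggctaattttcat
Myd88: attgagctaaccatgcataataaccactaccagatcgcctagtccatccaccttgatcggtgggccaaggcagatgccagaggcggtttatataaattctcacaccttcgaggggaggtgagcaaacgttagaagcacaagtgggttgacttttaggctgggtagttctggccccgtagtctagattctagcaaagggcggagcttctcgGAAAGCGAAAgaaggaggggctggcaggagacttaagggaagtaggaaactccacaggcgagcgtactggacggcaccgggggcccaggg
The Tlr3 window (chr8:45410331-45410630, minus strand) holds 3 NF-kB matches and the Tlr9 window (chr9:106222348-106222647, plus strand) neither motif. The Tlr1 window (chr5:64932650-64932949, minus strand) holds neither motif, and the window of its other listed start has no match. In the Myd88 window (chr9:119339969-119340268, minus strand) an ISRE core match starts 40 bases before the gene start. Windows were found for 28 of the 37 members, 36 windows in all. An NF-kB match was in 21 of these 36 windows against 50.8% of all 32851 windows, and an ISRE core match in 3 against 3.44%. A match describes the letters and does not show binding.

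Counted over the 36 tested members, 20 rose and 10 fell with LPS in wild type, while 21.7% of all tested genes rose and 18% fell. With PolyI:C 19 rose and 11 fell (21.2% and 19.9% of all genes), and with CpG 9 rose and 15 fell (16.5% and 19.6%). For libraries labelled CB2-/- 15 members rose and 7 fell with LPS (12.8% and 10.9% of all genes). With PolyI:C 11 rose and none fell (5.11% and 3.44%), and with CpG 11 rose and 7 fell (6.82% and 7.44%). Wherever members fell, Tlr5 was counted among them, although it was barely detected and listed at 0 in the stimulated libraries of those comparisons. The median log2 change of the members was 0.55, 0.59 and -0.14 with LPS, PolyI:C and CpG in wild type, against 0.05, -0.06 and -0.09 over all tested genes. It was 0.37, 0.18 and 0.18 in libraries labelled CB2-/-, against 0.03, 0.01 and 0.00. A quantile scaling moved the median of all genes by -0.11 for LPS and 0.14 for CpG in wild type. In a fit of the CpG and unstimulated wild-type libraries alone 15 of the 24 CpG calls were made, without Tlr5, Cd14, Tirap, Traf6, Tab2, Peli1, Nod1, Nod2 and Ripk2. Without a term for the number series the wild-type CpG calls of Tlr2, Tirap, Irak2 and Ripk2 were lost, and 7 of the 11 PolyI:C calls in libraries labelled CB2-/- were made. The PolyI:C changes of the 4 missing there, Tlr1 (0.93), Tlr2 (0.75), Traf3 (0.72) and Unc93b1 (0.46), were the same with and without the term, since both groups lie in one series, and their adjusted p became 0.121, 0.166, 0.0559 and 0.076 (limma, BH). Tab1 and Tab3 passed in none of the 6 responses. The 3 responses of a genotype share their unstimulated libraries.

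**Figure D2:**
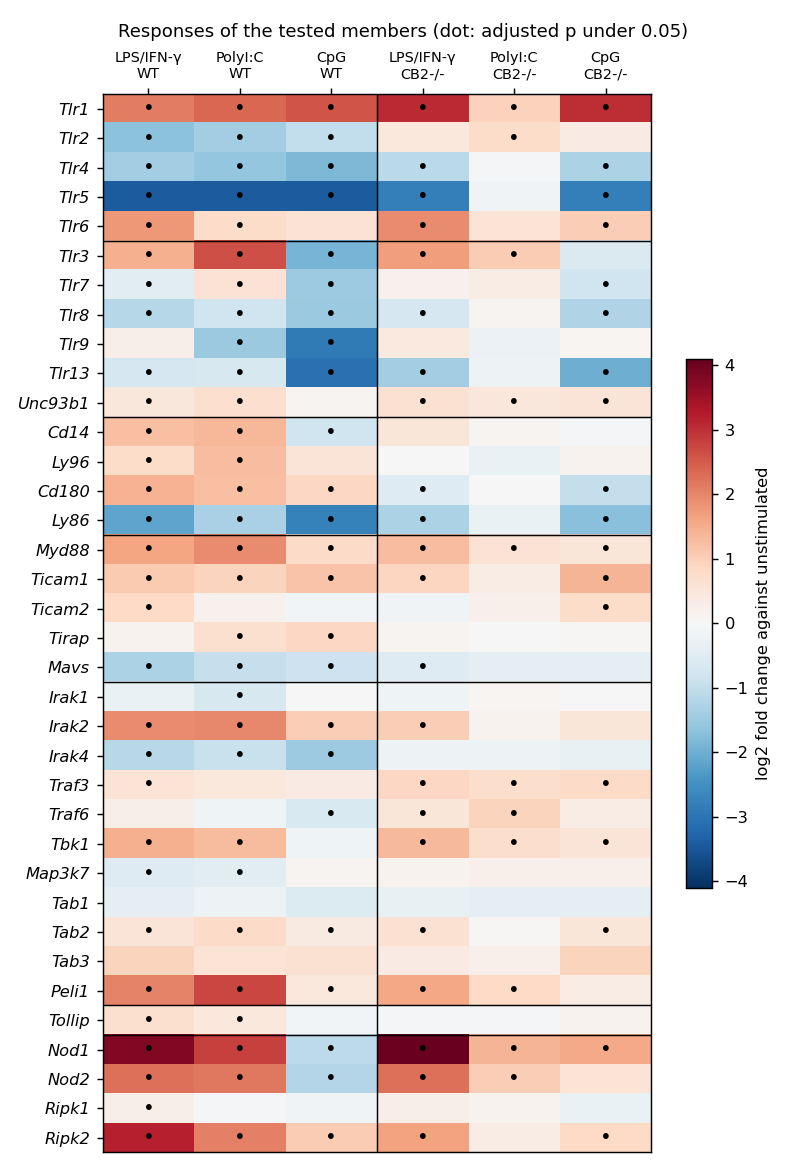
Log2 fold change against unstimulated cells (colour, red higher and blue lower) of the 36 tested members (rows, grouped by role) for the 3 stimuli in wild type and in libraries labelled CB2-/- (columns); a dot marks an adjusted p under 0.05 (limma, BH). Tlr1 and Myd88 are red with a dot in all 6 columns, and the PolyI:C column of libraries labelled CB2-/- has 11 dots, all of them red; the colour of Tlr5, listed at 0 in most stimulated libraries, depends on the constant added before the logarithm.

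Among the cell-surface receptors, Tlr1 (chr5:64924679-64933563), which pairs with TLR2 to bind triacylated lipopeptides, rose in every response. Wild-type replicates 1 to 3 held 471, 363 and 484 without stimulus, and the stimulated libraries 1905, 1924 and 1830.4 after LPS, 2480.0, 2186 and 2080.3 after PolyI:C and 3029, 2498 and 2344 after CpG. Libraries labelled CB2-/- held 164, 160.4 and 257 without stimulus, then 1515, 1669 and 1543 after LPS, 309, 405 and 378 after PolyI:C and 1541, 1591 and 1526 after CpG. No stimulated library overlapped its unstimulated group. The wild-type changes were 2.11 ± 0.15, 2.36 ± 0.15 and 2.58 ± 0.15 and those in libraries labelled CB2-/- 3.05 ± 0.15, 0.93 ± 0.15 and 3.03 ± 0.15, in the same order, the largest of the 6 adjusted p being 2.21e-04 (limma, BH). The rise with PolyI:C was smaller in libraries labelled CB2-/- (difference -1.43 ± 0.21, adjusted p = 1.69e-05, limma, BH) and that with LPS larger (0.94 ± 0.21, adjusted p = 0.00381, limma, BH). Tlr1 also differed between the number series within unstimulated wild type, with 146, 146 and 171 in replicates 4 to 6 (-1.49 ± 0.15, adjusted p = 2.24e-07, limma, BH).

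Tlr2 (chr3:83836272-83841767), the shared partner of TLR1 and TLR6, fell with all 3 stimuli in wild type and rose with PolyI:C in libraries labelled CB2-/-. Wild-type values were 3448, 3478 and 3534 without stimulus, 1158, 1033 and 1075 after LPS, 1007, 1499 and 1420.4 after PolyI:C and 1141, 2266 and 2059.8 after CpG. In libraries labelled CB2-/- they were 3126, 2999 and 2987 without stimulus, 4156, 3837 and 4262 after LPS, 5252, 4917 and 5139 after PolyI:C and 4107, 3938 and 3543 after CpG. All 9 stimulated wild-type libraries lay below unstimulated replicates 1 to 3, and all 9 stimulated libraries labelled CB2-/- lay above theirs. Tlr2 fell in the 3 wild-type responses (-1.68 ± 0.18, -1.43 ± 0.18 and -1.0 ± 0.18; adjusted p = 5.78e-08, 6.97e-07 and 1.36e-04, limma, BH). Of the 3 responses in libraries labelled CB2-/- only that to PolyI:C passed the test (0.75 ± 0.18, adjusted p = 0.0108, limma, BH), and it missed the threshold with quantile scaling (0.59). The responses differed by 2.11 ± 0.26, 2.18 ± 0.26 and 1.34 ± 0.26 for LPS, PolyI:C and CpG (adjusted p = 4.19e-06, 7.93e-07 and 0.00112, limma, BH). Tlr2 stood at 2063, 1361 and 1361 in wild-type replicates 4 to 6, lower than in replicates 1 to 3 (-1.16 ± 0.18, adjusted p = 1.14e-04, limma, BH). Fitted without a term for the number series, the CpG change in wild type was -0.42 and the CpG difference 0.76, and neither passed.

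Tlr6, which pairs with TLR2 for diacylated lipopeptides, had unstimulated wild-type values of 232, 128 and 185. It rose with LPS in both genotypes (1.79 ± 0.30 and 1.95 ± 0.30; adjusted p = 3.78e-05 and 2.37e-05, limma, BH), to 593, 666 and 581 in wild type and 957, 815 and 846 in libraries labelled CB2-/-. Its rises with PolyI:C in wild type (0.76 ± 0.30) and with CpG in libraries labelled CB2-/- (1.01 ± 0.30) had adjusted p of 0.0494 and 0.0252 (limma, BH), and each was lost in 4 of 6 fits that left out 1 library, with values of 0.47 to 0.79 and 0.80 to 1.04. Tlr5, the flagellin receptor, was barely detected: its unstimulated wild-type values were 39.5, 2.32 and 8.01 and 3.87, 4.15 and 1.53, and it was listed at 0 in all 9 stimulated wild-type libraries. It was also at 0 in the LPS and CpG libraries labelled CB2-/-, so no fold is given, although 5 of the 6 contrasts passed the test.

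Of the other endosomal receptors, Tlr7 (chrX:167304929-167330558), a sensor of single-stranded RNA, held 2760.5, 2629 and 2855 in unstimulated wild type, 1996, 1885 and 2135 after LPS, 3809, 4489.7 and 4269.8 after PolyI:C and 1081, 927 and 903 after CpG. The libraries labelled CB2-/- held 2009, 1810.2 and 1710.4 without stimulus, 2077, 2041 and 2142 after LPS, 2219.9, 2307 and 2289 after PolyI:C and 1093, 1016 and 1008 after CpG. CpG libraries were the lowest in both genotypes. Tlr7 fell with CpG in both (-1.51 ± 0.11 and -0.82 ± 0.11; adjusted p = 9.70e-11 and 4.97e-06, limma, BH). In wild type it fell with LPS (-0.46 ± 0.11, adjusted p = 0.00179, limma, BH), a change that was 0.04 without the term for the number series. It rose with PolyI:C by 0.61 ± 0.11 (adjusted p = 8.57e-05, limma, BH), but quantile scaling turned that direction (-0.22). The LPS and CpG responses were higher in libraries labelled CB2-/- by 0.64 ± 0.16 and 0.68 ± 0.16 (adjusted p = 0.00727 and 0.00491, limma, BH).

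Tlr8, in humans another receptor of single-stranded RNA, fell in 5 of the 6 responses. Its values were 1041, 1069 and 1049 in unstimulated wild type, 449, 450.3 and 512 after LPS, 668, 636 and 505 after PolyI:C and 364, 373 and 353 after CpG. Among libraries labelled CB2-/- they were 693, 401 and 569.8 without stimulus, 379, 306 and 322 after LPS, 670.1, 553 and 540.3 after PolyI:C and 262, 230.3 and 200.4 after CpG, beside 597, 801 and 768 in unstimulated wild-type replicates 4 to 6. PolyI:C libraries labelled CB2-/- overlapped their unstimulated group, and the others lay below theirs. The falls were -1.16 ± 0.16, -0.81 ± 0.16 and -1.53 ± 0.16 in wild type and -0.69 ± 0.16 and -1.23 ± 0.16 for LPS and CpG in libraries labelled CB2-/-, the largest adjusted p being 0.00236 (limma, BH). For PolyI:C the genotypes differed by 0.93 ± 0.23, adjusted p = 0.004, limma, BH.

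Tlr13 (chrX:106143204-106160493), which in mice senses bacterial ribosomal RNA, had the largest fall with CpG among the members other than Tlr5. Wild type went from 2039, 1487 and 1764 to 154, 261 and 222 with CpG, 1016, 1064 and 1165 with LPS and 973, 1230.5 and 1162 with PolyI:C. Samples labelled CB2-/- went from 2672, 2688 and 2367 to 606, 744 and 588 with CpG, 965, 851 and 1046 with LPS and 2098, 2282 and 2342 with PolyI:C. Every stimulated library lay below its unstimulated group. The CpG changes were -3.07 ± 0.19 and -2.00 ± 0.19 in the order wild type, labelled CB2-/- (adjusted p = 4.78e-12 and 2.37e-08, limma, BH), and differed by 1.07 ± 0.27, adjusted p = 0.00985, limma, BH. The LPS changes of -0.69 ± 0.19 and -1.43 ± 0.19 passed the test (adjusted p = 0.00479 and 2.38e-06, limma, BH), as did the wild-type PolyI:C change of -0.65 ± 0.19 (adjusted p = 0.00789, limma, BH). Unc93b1, the chaperone, ran from 3084 to 9213 over the 27 libraries. It rose in 5 of the 6 responses by 0.45 to 0.67 (largest adjusted p 0.0196, limma, BH), but with quantile scaling its wild-type changes turned to -0.63 with LPS and -0.31 with PolyI:C, and those to LPS and PolyI:C in libraries labelled CB2-/- no longer passed (0.04 and 0.25).

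Among the co-receptors, Cd14, which hands LPS to the TLR4 complex, was the most abundant receptor component per exon length. Wild-type values were 13196, 8570.4 and 10460.0 without stimulus, 25215, 23919.6 and 25487 after LPS, 21777, 29905 and 31328 after PolyI:C and 3371, 8058 and 7931 after CpG. For libraries labelled CB2-/- they were 17218, 17094 and 16400.0 without stimulus, 23914, 23826 and 23854 after LPS, 19143, 17637 and 17837 after PolyI:C and 15862, 16128 and 15691 after CpG. In both genotypes every LPS and PolyI:C library lay above the unstimulated group and every CpG library below it. The stimuli lay farther apart in wild type, and no stimulated library labelled CB2-/- fell below 15691. In wild type Cd14 rose by 1.23 ± 0.25 and 1.37 ± 0.25 (adjusted p = 3.64e-04 and 1.06e-04, limma, BH), but quantile scaling reduced these changes to 0.18 and 0.54 and neither passed. It fell with CpG (-0.82 ± 0.25, adjusted p = 0.0139, limma, BH), a call that was lost without unstimulated replicate 1 (-0.66) or CpG replicate 1 (-0.40). No change passed in libraries labelled CB2-/-. The PolyI:C responses differed by -1.26 ± 0.36, adjusted p = 0.0112, limma, BH, and with quantile scaling by -0.53, which did not pass.

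Ly96, which encodes MD-2, the LPS-binding partner of TLR4, stood at 89.6, 132 and 121 in unstimulated wild type, 180.1, 226 and 169 after LPS, 239, 285 and 302 after PolyI:C and 119, 175 and 201 after CpG. Libraries labelled CB2-/- held 153, 139 and 137 without stimulus, 153, 131 and 149 after LPS, 94.2, 141 and 122 after PolyI:C and 143, 149.5 and 177 after CpG, all overlapping. Its unstimulated wild-type replicates 4 to 6 held 111, 54.3 and 117. It rose in wild type with PolyI:C (log2 fold change 1.27 ± 0.25, adjusted p = 1.86e-04, limma, BH) and with LPS (log2 fold change 0.75 ± 0.25, adjusted p = 0.0182, limma, BH). The LPS call was lost without unstimulated replicate 1 (0.59) or LPS replicate 2 (0.63). The PolyI:C responses differed by -1.55 ± 0.35, adjusted p = 0.00179, limma, BH.

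Cd180 and Ly86 encode RP105 and MD-1, a pair related to TLR4 and MD-2. Cd180 (chr13:102693558-102739629) held 687, 902 and 851 in unstimulated wild type and 2052, 2233 and 2204 after LPS, 1678, 2033 and 1976 after PolyI:C and 1968, 1378 and 1174 after CpG. The libraries labelled CB2-/- held 1521, 1394 and 1397 without stimulus, 1034, 962 and 1016 after LPS, 1417, 1359 and 1460.3 after PolyI:C and 742, 758 and 682 after CpG. All stimulated wild-type libraries were above their unstimulated group, and LPS and CpG libraries labelled CB2-/- were below theirs. Cd180 rose in the 3 wild-type responses (1.42 ± 0.14, 1.22 ± 0.14 and 0.86 ± 0.14; adjusted p = 1.28e-08, 1.45e-07 and 3.29e-05, limma, BH) and fell with LPS and CpG in libraries labelled CB2-/- (-0.52 ± 0.14 and -0.98 ± 0.14; adjusted p = 0.0087 and 1.52e-05, limma, BH). The differences were -1.94 ± 0.20, -1.25 ± 0.20 and -1.85 ± 0.20 (adjusted p = 3.58e-07, 4.64e-05 and 1.44e-06, limma, BH).

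Its partner Ly86 fell in 5 of the 6 responses. Wild-type values were 3192, 3675 and 3746 without stimulus, 842, 757 and 766 after LPS, 1118, 1599 and 1502 after PolyI:C and 370.0, 707 and 527 after CpG. Samples labelled CB2-/- held 1112, 1294 and 1416 without stimulus, 492, 529.6 and 534 after LPS, 1079, 1001 and 1047 after PolyI:C and 366, 421 and 361 after CpG. No stimulated library reached its unstimulated range. The falls were -2.16 ± 0.18, -1.34 ± 0.18 and -2.77 ± 0.18 in wild type and -1.29 ± 0.18 and -1.73 ± 0.18 with LPS and CpG in libraries labelled CB2-/- (largest adjusted p 6.29e-06, limma, BH), and -0.28 ± 0.18, adjusted p = 0.42, limma, BH with PolyI:C in the latter did not pass. The falls were smaller in libraries labelled CB2-/-, by 0.87 ± 0.26, 1.06 ± 0.26 and 1.04 ± 0.26 (adjusted p = 0.026, 0.00326 and 0.0088, limma, BH). The LPS difference was lost in 6 of 12 fits that each left out 1 library, at 0.78 to 0.86.

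Of the adaptors, Myd88 (chr9:119335934-119341411), shared by all Toll-like receptors but TLR3, rose in all 6 responses. It held 585, 571 and 521 in unstimulated wild type, 1635, 1652 and 1895 after LPS, 1979, 2175 and 2257 after PolyI:C and 1169.7, 893 and 829 after CpG. Libraries labelled CB2-/- held 572, 671 and 566 without stimulus, 1496, 1351 and 1503 after LPS, 905, 940.1 and 855 after PolyI:C and 859, 825 and 852 after CpG. Every stimulated library lay above its unstimulated group. The changes were 1.62 ± 0.11, 1.93 ± 0.11 and 0.77 ± 0.11 in wild type and 1.27 ± 0.11, 0.58 ± 0.11 and 0.49 ± 0.11 in libraries labelled CB2-/-, the largest adjusted p being 0.00325 (limma, BH). The response to PolyI:C differed by -1.35 ± 0.16, adjusted p = 7.08e-07, limma, BH, and the LPS and CpG responses did not pass (-0.36 ± 0.16 and -0.28 ± 0.16).

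**Figure D3:**
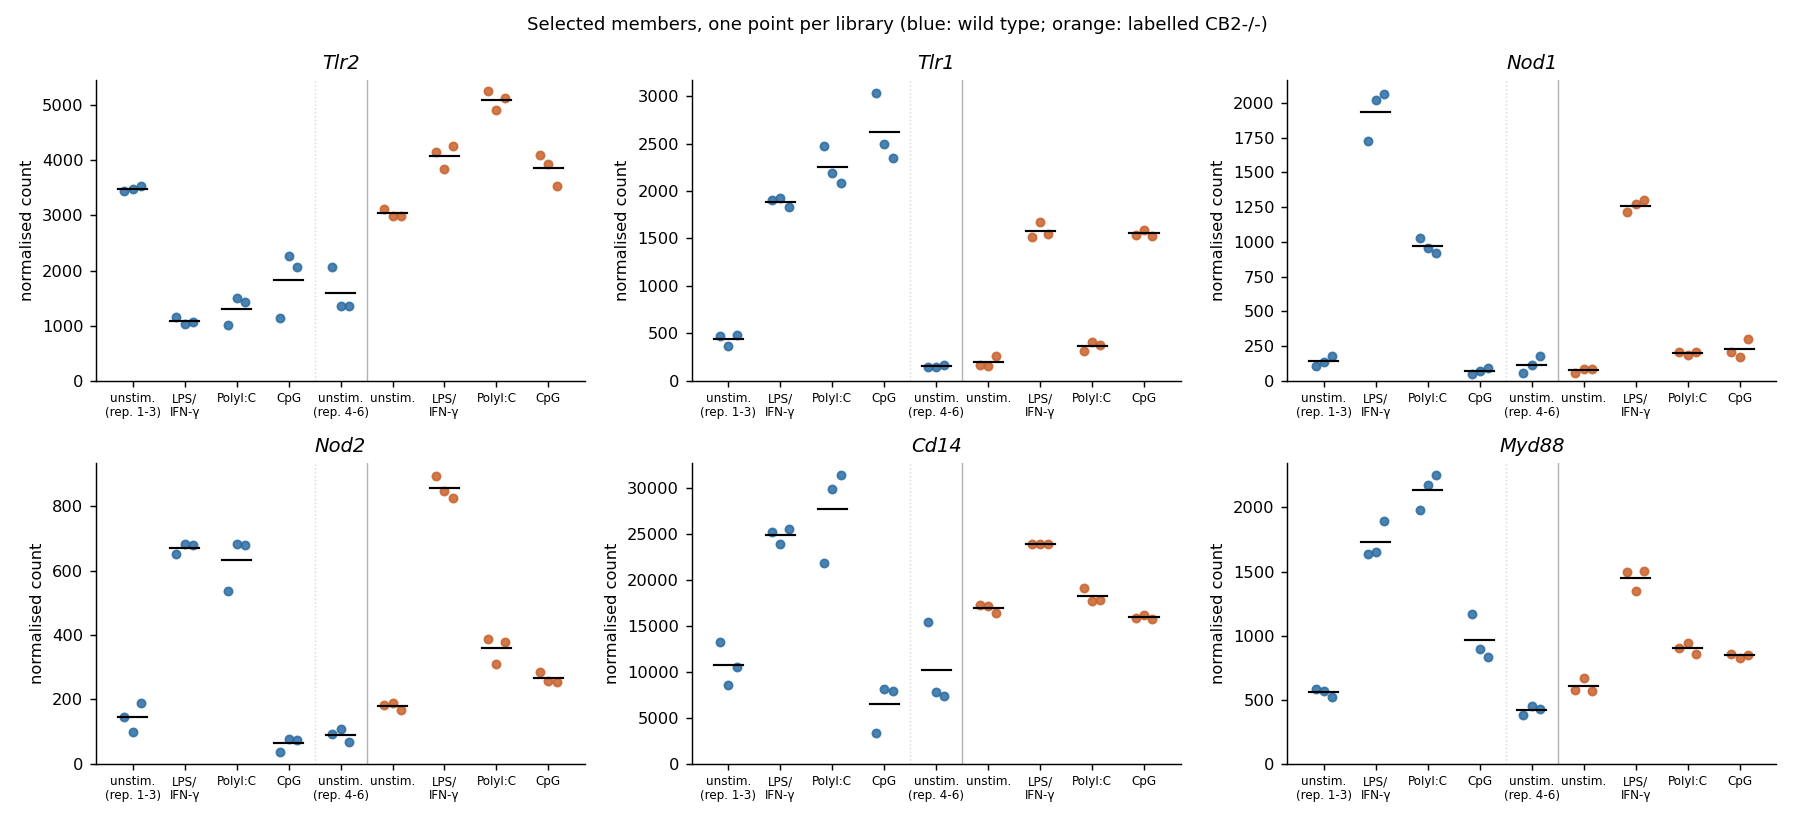
Normalised count (y axis, linear from 0) of Tlr2, Tlr1, Nod1, Nod2, Cd14 and Myd88 in each library, by group (x axis); points are libraries, black bars are means of 3, blue is wild type and orange is labelled CB2-/-. In wild type Tlr2 with stimulus lies below unstimulated replicates 1 to 3 but overlaps replicates 4 to 6, at 2063, 1361 and 1361. In libraries labelled CB2-/- it lies above their unstimulated group. Nod1 with CpG lies at 45.5, 70.0 and 89.8 in wild type and 204, 173 and 304 in libraries labelled CB2-/-.

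Ticam1, which encodes TRIF, the adaptor of TLR3 and TLR4, had 158, 153 and 175 in unstimulated wild type, 339.9, 379 and 309.8 after LPS, 271, 342 and 313 after PolyI:C and 404, 326 and 372 after CpG. The libraries labelled CB2-/- had 125, 126 and 133 without stimulus, 230.4, 237 and 246 after LPS, 143, 178 and 161 after PolyI:C and 359, 337 and 317 after CpG, beside 125, 136 and 175 in unstimulated wild-type replicates 4 to 6. It rose in every response but that to PolyI:C in libraries labelled CB2-/-. The changes were 1.07 ± 0.14, 0.92 ± 0.14 and 1.17 ± 0.14 in wild type and 0.89 ± 0.14, 0.32 ± 0.14 and 1.39 ± 0.14 in the others, with adjusted p of 0.199 for the exception and at most 3.68e-05 for the rest (limma, BH). The PolyI:C difference of -0.60 ± 0.20, adjusted p = 0.0305, limma, BH was lost without any of 6 of the 12 libraries (-0.52 to -0.59).

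Ticam2 encodes TRAM, which links TLR4 to TRIF. In wild type it went from 183, 243 and 203 to 357, 387 and 347 after LPS, 246, 244 and 223 after PolyI:C and 159, 186 and 247 after CpG. Samples labelled CB2-/- had 159, 166 and 189.6 without stimulus, 125, 164 and 183 after LPS, 192, 189 and 216 after PolyI:C and 255, 303 and 309 after CpG. The stimulus that stood above the unstimulated group was thus LPS in one genotype and CpG in the other. Ticam2 rose with LPS in wild type (0.80 ± 0.16, adjusted p = 3.16e-04, limma, BH) and with CpG in libraries labelled CB2-/- (0.75 ± 0.16, adjusted p = 0.00193, limma, BH). The LPS and CpG responses differed by -0.94 ± 0.23 and 0.85 ± 0.23 (adjusted p = 0.00767 and 0.017, limma, BH), of which the CpG difference missed the threshold in a fit of the compared groups alone.

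Mavs, the adaptor of the cytosolic RNA sensors RIG-I and MDA5, the latter also a sensor of PolyI:C, was at 429.9, 393 and 367 in unstimulated wild type, 140.4, 168 and 172 after LPS, 251, 172 and 194 after PolyI:C and 216, 219 and 220.4 after CpG. Libraries labelled CB2-/- had 291, 281 and 305 without stimulus, 207, 207 and 197 after LPS, 244, 246 and 195 after PolyI:C and 237, 217 and 223 after CpG, beside 258, 331 and 317 in unstimulated wild-type replicates 4 to 6. All stimulated libraries lay below their unstimulated groups. Mavs fell in wild type (-1.31 ± 0.14, -0.96 ± 0.14 and -0.86 ± 0.14; adjusted p = 6.01e-08, 6.57e-06 and 4.23e-05, limma, BH) and with LPS in libraries labelled CB2-/- (-0.52 ± 0.14, adjusted p = 0.00885, limma, BH). The LPS and PolyI:C falls were smaller in the latter, by 0.79 ± 0.20 and 0.60 ± 0.20 (adjusted p = 0.011 and 0.0334, limma, BH), and the second of these was lost without any of 7 of the 12 libraries (0.48 to 0.59). Tirap, which brings MyD88 to TLR2 and TLR4, rose in wild type with PolyI:C (0.65 ± 0.23, adjusted p = 0.0287, limma, BH) and CpG (0.85 ± 0.23, adjusted p = 0.00614, limma, BH). Without unstimulated replicate 1 both calls were lost, at 0.37 and 0.57, and the PolyI:C call also without PolyI:C replicate 2 (0.47) or 3 (0.60). The CpG call was also lost in the authors' batch-corrected table.

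Among the kinases of the IRAK family, Irak2, which sustains NF-kB signalling, rose. It held 472, 488 and 592 in unstimulated wild type, 1807, 1990.3 and 2109 after LPS, 1954, 2000.5 and 2159 after PolyI:C and 1511, 995 and 735 after CpG. The libraries labelled CB2-/- held 1024, 951 and 990.0 without stimulus, 2001, 1900.3 and 2058 after LPS, 1008, 1229.5 and 1047 after PolyI:C and 1354, 1287 and 1538 after CpG. LPS libraries of the 2 genotypes overlapped, whereas PolyI:C libraries labelled CB2-/- overlapped their unstimulated group. The changes were 1.93 ± 0.18, 1.98 ± 0.18 and 1.01 ± 0.18 in wild type (adjusted p = 2.91e-09, 1.88e-09 and 7.89e-05, limma, BH) and, in libraries labelled CB2-/-, 1.01 ± 0.18, adjusted p = 1.18e-04, limma, BH with LPS. The LPS and PolyI:C responses differed by -0.92 ± 0.25 and -1.84 ± 0.25 (adjusted p = 0.0154 and 5.27e-06, limma, BH). Unstimulated wild type itself differed between the number series, with 873, 1295 and 855 in replicates 4 to 6 (0.94 ± 0.18, adjusted p = 7.41e-04, limma, BH).

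Irak4, the kinase that starts the cascade at MyD88, went the other way. Its values were 515, 417 and 407 in unstimulated wild type, 180.1, 188 and 246 after LPS, 299, 202 and 222 after PolyI:C and 148, 143 and 185 after CpG. In libraries labelled CB2-/- they were 217, 249 and 249 without stimulus, 213, 198 and 210.2 after LPS, 222, 175 and 226 after PolyI:C and 180.2, 183 and 212 after CpG, beside 265, 364 and 388 in unstimulated wild-type replicates 4 to 6. Irak4 fell in the 3 wild-type responses (-1.13 ± 0.18, -0.90 ± 0.18 and -1.49 ± 0.18; adjusted p = 1.34e-05, 2.12e-04 and 3.30e-07, limma, BH) and in none of the others (-0.20 ± 0.18, -0.21 ± 0.18 and -0.32 ± 0.18). The differences of 0.93 ± 0.25, 0.69 ± 0.25 and 1.17 ± 0.25 passed the test (adjusted p = 0.0151, 0.0462 and 0.00273, limma, BH), but that for PolyI:C was lost without any of 8 of the 12 libraries (0.57 to 0.72) and that for LPS without unstimulated wild-type replicate 1 (0.82). Irak1, a substrate of IRAK4, passed once, falling with PolyI:C in wild type (-0.66 ± 0.14, adjusted p = 4.36e-04, limma, BH) from 1029, 744 and 842 to 545, 479 and 622. Among libraries labelled CB2-/- Irak1 held 688, 654 and 561 without stimulus and 705, 614 and 685 with PolyI:C, and the responses differed by 0.74 ± 0.20, adjusted p = 0.00707, limma, BH. Its wild-type values were 666, 721 and 780.1 after LPS, 1009, 853 and 764 after CpG and 545, 656 and 567 in unstimulated replicates 4 to 6. After LPS and CpG the libraries labelled CB2-/- held 505, 577 and 588 and 726, 597 and 546.

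The ubiquitin ligase Peli1 (chr11:21091291-21150323), which acts on IRAK and RIPK1 complexes, held 281, 225 and 292 in unstimulated wild type, 1014, 1163 and 1105 after LPS, 1735, 1789.9 and 1771 after PolyI:C and 453, 337 and 295 after CpG. Samples labelled CB2-/- held 287, 259.7 and 258 without stimulus, 775, 839 and 804 after LPS, 543, 458 and 437 after PolyI:C and 355, 310.2 and 338 after CpG, beside 272, 262 and 222 in unstimulated wild-type replicates 4 to 6. PolyI:C gave the highest values in wild type and LPS in libraries labelled CB2-/-. Peli1 rose by 2.04 ± 0.14 and 2.74 ± 0.14 with LPS and PolyI:C in wild type and by 1.59 ± 0.14 and 0.83 ± 0.14 in the others (largest adjusted p 2.37e-04, limma, BH). Its rise with CpG in wild type (0.43 ± 0.14, adjusted p = 0.0158, limma, BH) was lost without unstimulated replicate 2 (0.31) or CpG replicate 1 (0.25). That call was also lost with library weights and in the authors' batch-corrected table. The PolyI:C responses differed by -1.90 ± 0.19, adjusted p = 6.33e-08, limma, BH.

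Tbk1, the kinase that activates IRF3, stood at 649, 532 and 621 in unstimulated wild type, 1546, 1729 and 1635 after LPS, 1597, 1546 and 1268 after PolyI:C and 522, 494 and 591 after CpG. Libraries labelled CB2-/- stood at 421, 540.0 and 454 without stimulus, 1212, 1133 and 1218 after LPS, 782, 675 and 865 after PolyI:C and 664, 705 and 678 after CpG, beside 584, 522 and 379 in unstimulated wild-type replicates 4 to 6. It rose with LPS and PolyI:C in both genotypes, by 1.45 ± 0.14 and 1.29 ± 0.14 in wild type and 1.34 ± 0.14 and 0.71 ± 0.14 in the others (largest adjusted p 0.00136, limma, BH). With CpG it rose in libraries labelled CB2-/- alone (0.54 ± 0.14, adjusted p = 0.00792, limma, BH), a call lost without their unstimulated replicate 1 (0.46). The CpG difference was 0.70 ± 0.20, adjusted p = 0.02, limma, BH, lost without unstimulated replicate 1 of wild type (0.64) or of libraries labelled CB2-/- (0.62). The PolyI:C difference was -0.57 ± 0.20, adjusted p = 0.0336, limma, BH, lost without any of 6 of the 12 libraries (-0.59 to -0.47).

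Traf6, the ubiquitin ligase below the IRAK kinases, had 194, 203 and 338 in unstimulated wild type, 260.1, 292 and 298 after LPS, 191, 228 and 205 after PolyI:C and 164, 151 and 151 after CpG. The libraries labelled CB2-/- had 331, 394 and 457 without stimulus, 526, 552 and 591 after LPS, 629, 934 and 676 after PolyI:C and 507, 441 and 501 after CpG, beside 492, 387 and 339 in unstimulated wild-type replicates 4 to 6. It fell with CpG in wild type (-0.61 ± 0.18, adjusted p = 0.0116, limma, BH), a call lost without unstimulated replicate 3 (-0.35), and rose with PolyI:C in libraries labelled CB2-/- (0.91 ± 0.18, adjusted p = 0.00211, limma, BH). Its rise with LPS there (0.51 ± 0.18, adjusted p = 0.0484, limma, BH) was lost without any of 5 of the 6 libraries (0.39 to 0.55). The PolyI:C and CpG responses differed by 1.10 ± 0.26 and 0.91 ± 0.26 (adjusted p = 0.00265 and 0.0235, limma, BH), the latter lost without any of 4 libraries (0.66 to 0.88). Traf3, the ligase of the TRIF branch, rose in 4 of the 6 responses by 0.56 to 0.86 (adjusted p = 0.0348, 0.00334, 0.0316 and 0.00936 for LPS in wild type and LPS, PolyI:C and CpG in libraries labelled CB2-/-, limma, BH). Of these 4 calls the one that held without each library in turn was LPS in libraries labelled CB2-/-; the lowest values of the others were 0.49, 0.48 and 0.67.

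In the TAK1 complex, Tab2, which binds ubiquitin chains for the kinase, had 1349, 1083 and 1216 in unstimulated wild type, 1888, 1768 and 1597 after LPS, 2241, 2111 and 1914 after PolyI:C and 1676, 1486 and 1499 after CpG. Samples labelled CB2-/- had 1116, 1065 and 1098 without stimulus, 1706, 1662 and 1745 after LPS, 991, 1158 and 1254 after PolyI:C and 1497, 1504 and 1633 after CpG, beside 1319, 1128 and 1211 in unstimulated wild-type replicates 4 to 6. It rose in every response but that to PolyI:C in libraries labelled CB2-/-, by 0.53 ± 0.10, 0.78 ± 0.10 and 0.36 ± 0.10 in wild type and 0.64 ± 0.10 and 0.50 ± 0.10 in the others (largest adjusted p 0.00723, limma, BH). With quantile scaling the wild-type changes were 0.01, 0.24 and 0.24, and none of the 3 passed; the CpG change was also lost without unstimulated replicate 2 (0.28). The PolyI:C responses differed by -0.74 ± 0.14, adjusted p = 3.82e-04, limma, BH, and by -0.25 with quantile scaling, which did not pass. Map3k7, which encodes TAK1 itself, fell slightly in wild type with LPS (-0.54 ± 0.18, adjusted p = 0.0176, limma, BH) and PolyI:C (-0.46 ± 0.18, adjusted p = 0.0415, limma, BH). The first was lost without unstimulated replicate 1 (-0.50) or LPS replicate 3 (-0.44), the second without any unstimulated replicate or PolyI:C replicate 2, at -0.49 to -0.31. Tab1 ran from 72.7 to 206 and Tab3 from 35.4 to 373 over all libraries.

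Of the inhibitors, Tollip, which holds IRAK1 in check, had 422, 446 and 435 in unstimulated wild type, 656, 749.6 and 655 after LPS, 606, 594 and 579 after PolyI:C and 372, 344 and 506 after CpG. Libraries labelled CB2-/- had 541, 673 and 681 without stimulus, 611, 602 and 584 after LPS, 544, 609 and 615 after PolyI:C and 744, 599 and 729.7 after CpG, with overlap throughout. In wild-type replicates 4 to 6 it had 608, 909.7 and 662. It rose in wild type with LPS and PolyI:C (0.66 ± 0.14 and 0.45 ± 0.14; adjusted p = 6.53e-04 and 0.0146, limma, BH), and neither rise passed without the term for the number series (0.30 and 0.09); that with PolyI:C also missed with quantile scaling (0.28). The LPS difference was -0.73 ± 0.20, adjusted p = 0.0184, limma, BH, lost without any of 3 libraries (-0.66 to -0.68). Sigirr was at 0 in 20 of the 27 libraries and was not tested.

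In the NOD branch, Nod1 had the largest rise of all members with LPS and with PolyI:C, in each genotype. Nod1 (chr6:54923949-54972612), a sensor of peptidoglycan with diaminopimelic acid, went from 109, 137 and 179 in unstimulated wild type to 1727, 2021 and 2067 after LPS, 1032, 958 and 921 after PolyI:C and 45.5, 70.0 and 89.8 after CpG. The libraries labelled CB2-/- held 58.0, 85.2 and 85.7 without stimulus, 1214, 1269.6 and 1301 after LPS, 204, 184 and 206 after PolyI:C and 204, 173 and 304 after CpG, beside 52.7, 113 and 176 in unstimulated wild-type replicates 4 to 6. CpG libraries lay below unstimulated replicates 1 to 3 in wild type, overlapped replicates 4 to 6, and lay above the unstimulated group in libraries labelled CB2-/-. Nod1 rose with LPS by 3.79 ± 0.30 and 4.05 ± 0.30 in the order wild type, labelled CB2-/-, and with PolyI:C by 2.79 ± 0.30 and 1.38 ± 0.30 (adjusted p = 2.17e-10, 2.14e-10, 4.21e-08 and 0.00381, limma, BH). The LPS responses did not differ past the threshold (0.26 ± 0.43, adjusted p = 0.777, limma, BH, 95% interval -0.62 to 1.14), while those to PolyI:C differed by -1.41 ± 0.43, adjusted p = 0.0166, limma, BH, a call lost without unstimulated wild-type replicate 1 (-1.24). With CpG it fell in wild type (-1.07 ± 0.30, adjusted p = 0.00724, limma, BH) and rose in libraries labelled CB2-/- (1.54 ± 0.30, adjusted p = 6.14e-04, limma, BH), a difference of 2.61 ± 0.43, adjusted p = 1.90e-04, limma, BH. The wild-type fall was lost without CpG replicate 1 (-0.80) and in the authors' batch-corrected table. That replicate had the fewest genes above 0 of the 27 libraries, at 13628. When libraries were weighted it had the lowest weight, 0.141.

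Nod2 (chr8:88647315-88688474), the sensor of muramyl dipeptide, also rose with LPS and PolyI:C in both genotypes. Its values were 144, 98.9 and 188 in unstimulated wild type, 652, 683 and 679.5 after LPS, 538, 682 and 680.4 after PolyI:C and 36.5, 76.7 and 74.9 after CpG. For libraries labelled CB2-/- they were 183, 187 and 166 without stimulus, 893, 847 and 826 after LPS, 387, 309.9 and 377 after PolyI:C and 284, 257 and 253 after CpG. The rises were 2.26 ± 0.23 and 2.26 ± 0.23 with LPS and 2.17 ± 0.23 and 1.00 ± 0.23 with PolyI:C, in the order wild type, labelled CB2-/- (adjusted p = 1.81e-08, 4.73e-08, 3.68e-08 and 0.007, limma, BH). With CpG it fell in wild type (-1.21 ± 0.23, adjusted p = 2.01e-04, limma, BH) and did not pass in the others (0.57 ± 0.23, adjusted p = 0.119, limma, BH). The wild-type CpG libraries lay below unstimulated replicates 1 to 3 but overlapped replicates 4 to 6, at 92.5, 106 and 66.2. The wild-type fall was lost in a fit of the compared groups alone. The PolyI:C and CpG responses differed by -1.18 ± 0.33 and 1.78 ± 0.33 (adjusted p = 0.00964 and 6.73e-04, limma, BH), and the LPS responses by -0.01 ± 0.33, which did not pass (95% interval -0.69 to 0.67).

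Ripk2, the kinase of both NOD receptors, held 77.6, 90.8 and 134 in unstimulated wild type, 1013, 912 and 788 after LPS, 345, 472 and 442 after PolyI:C and 124, 294 and 230.5 after CpG. Samples labelled CB2-/- held 290.2, 311 and 347 without stimulus, 1038, 1009.7 and 946 after LPS, 361, 429 and 392 after PolyI:C and 579, 541 and 554 after CpG. LPS libraries of the 2 genotypes ended in one range from starting levels that lay apart. It rose in wild type by 3.18 ± 0.23, 2.07 ± 0.23 and 1.04 ± 0.23 (adjusted p = 2.76e-11, 4.88e-08 and 7.18e-04, limma, BH) and in libraries labelled CB2-/- with LPS (1.66 ± 0.23, adjusted p = 3.65e-06, limma, BH) and CpG (0.82 ± 0.23, adjusted p = 0.0132, limma, BH), the last lost without unstimulated replicate 1 (0.76). The LPS and PolyI:C responses differed by -1.53 ± 0.32 and -1.76 ± 0.32 (adjusted p = 0.00179 and 1.91e-04, limma, BH), and without the term for the number series by -0.94 and -1.17, which did not pass. Within unstimulated wild type Ripk2 was higher in replicates 4 to 6, at 271, 217 and 191 (1.18 ± 0.23, adjusted p = 8.15e-04, limma, BH). Ripk1, a kinase of cell death and NF-kB signalling, ran from 522 to 910.1 over all libraries. Its rise with LPS in wild type (0.25 ± 0.09, adjusted p = 0.039, limma, BH) was lost without any 1 of the 6 compared libraries (0.23 to 0.27) and turned to -0.05 with quantile scaling.

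Unstimulated cells of the 2 genotypes differed in 11 of the 36 members. In libraries labelled CB2-/- 8 members were higher, where 6.25% of all tested genes were, and 3 were lower (3.65% of all), with a median of 0.01 against -0.05 over all genes. The higher ones were the receptors Tlr2, Tlr3, Tlr7 and Tlr13, the co-receptors Cd14 and Cd180, the adaptor Myd88 and Nod2. Tlr9, Ly86 and Ticam2 were lower. None of the 11 kinases, ubiquitin ligases and their partners passed, too few genes to set against the shares of 6.25% and 3.65%. The largest difference was that of Tlr3 (1.04 ± 0.21, adjusted p = 0.00199, limma, BH), at 552, 364 and 492 against 292, 277 and 138 in wild-type replicates 4 to 6. Nod2 was near it (1.03 ± 0.23, adjusted p = 0.00497, limma, BH), with 92.5, 106 and 66.2 in wild type, all below the libraries labelled CB2-/-. Tlr2 (0.96 ± 0.18, adjusted p = 0.00116, limma, BH) and Cd180 (0.80 ± 0.14, adjusted p = 5.52e-04, limma, BH) did not overlap between the groups either, Cd180 standing at 995, 756 and 752 in wild type.

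Wild-type values of Tlr13 were 2119, 1192 and 1167 (0.84 ± 0.19, adjusted p = 0.005, limma, BH) and those of Cd14 15345, 7835 and 7329 (0.82 ± 0.25, adjusted p = 0.0427, limma, BH), with replicate 4 above the other two in each. Tlr7 held 1686, 1374 and 1126 (0.42 ± 0.11, adjusted p = 0.0165, limma, BH), a direction that turned without the term for the number series (-0.08) and in the authors' batch-corrected table (-0.09). Both of these fits lacked the series term, so all 6 unstimulated wild-type libraries served as reference. Myd88 held 376, 451 and 428 (0.52 ± 0.11, adjusted p = 0.00345, limma, BH). Among the lower members, Ticam2 held 264, 283 and 286 in wild type (-0.69 ± 0.16, adjusted p = 0.00697, limma, BH) and Ly86 1503, 2378 and 2294 (-0.67 ± 0.18, adjusted p = 0.0195, limma, BH). Tlr9 held 173, 315 and 270.2 and overlapped the libraries labelled CB2-/- (-0.66 ± 0.21, adjusted p = 0.0485, limma, BH). Tlr4, the receptor of LPS, did not pass, at 993, 588 and 708 in wild type (0.38 ± 0.22, adjusted p = 0.298, limma, BH, 95% interval -0.07 to 0.83).

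These resting calls were fragile. Of the 11, 4 were lost without some library: Tlr7 at 0.27 without wild-type replicate 6, 0.42 without 5 or 0.35 without replicate 1 labelled CB2-/-, and Tlr9, Cd14 and Ly86. Cd14 and Tlr9 missed the threshold without wild-type replicate 5 or 6 or any replicate labelled CB2-/-, at 0.62 to 0.84 for Cd14 and -0.77 to -0.48 for Tlr9. Ly86 missed it without wild-type replicate 5 or 6 or replicate 1 or 2 labelled CB2-/-, at -0.68 to -0.55. The share of all genes called was not computed for the alternative fits, so counts of members in them have no share to be set against. The number of calls was 7 without wild-type replicate 5 or 6, 4 in a fit of the 2 compared groups alone and 17 in the authors' batch-corrected table. That table was fitted without the series term. The fit of the compared groups alone lost Tlr3, Tlr7, Tlr9, Tlr13, Cd14, Ly86 and Myd88. Tlr2 and Myd88 were lost without the series term, with all 6 unstimulated wild-type libraries as reference. Tlr2 in resting libraries labelled CB2-/- lay above wild-type replicates 4 to 6 but below replicates 1 to 3, at 3448, 3478 and 3534. The calls of Cd180, Ticam2 and Nod2 held under every setting tried. For scale, unstimulated wild-type replicates 4 to 6 and 1 to 3, cells of one label in 2 number series, differed in 13 members, 4 higher and 9 lower, where 12% of all genes did, and the count was 8 without replicate 1 and 4 in a fit of these libraries alone. The largest of these were Tlr1 (-1.49 ± 0.15), Ripk2 (1.18 ± 0.23), Tlr2 (-1.16 ± 0.18) and Tlr7 (-1.0 ± 0.11), each past the test in the same fit.

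**Figure D4:**
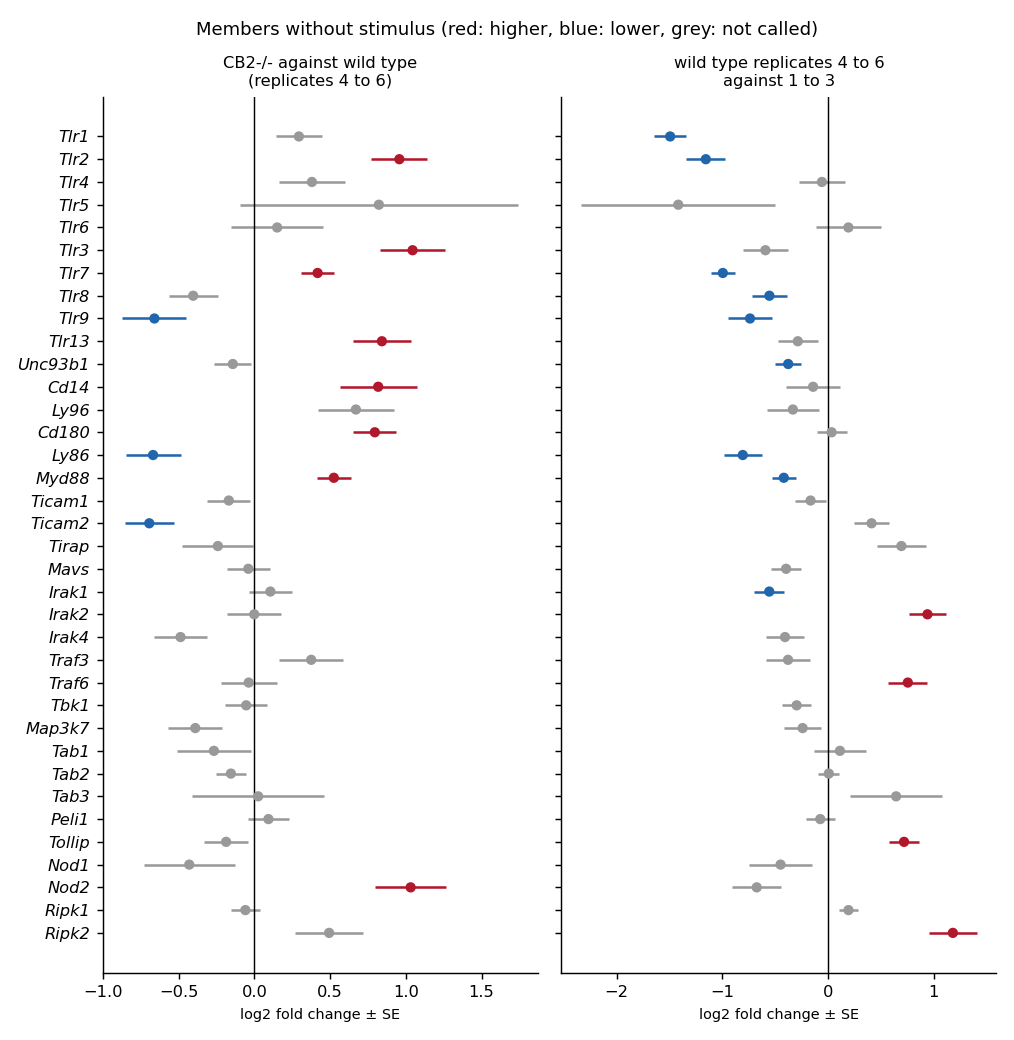
Log2 fold change ± SE (x axis) of the 36 tested members (y axis, by role) between unstimulated libraries labelled CB2-/- and wild-type replicates 4 to 6 (left), and between unstimulated wild-type replicates 4 to 6 and 1 to 3 (right); red and blue are calls at an adjusted p under 0.05 (limma, BH), grey is not called. On the left 8 members are red and 3 blue, and on the right 4 are red and 9 blue, with Tlr1 at -1.49 ± 0.15.

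Tested directly, the response to LPS was higher in libraries labelled CB2-/- for 6 members and lower for 5 (3.98% and 8.36% of all genes), that to PolyI:C higher for 9 and lower for 14 (10.8% and 13.9%), and that to CpG higher for 12 and lower for 1 (6.11% and 5.66%). The medians were 0.10, -0.26 and 0.44, against -0.02, 0.08 and 0.10 over all genes, and quantile scaling moved the last of these by -0.12. Tlr2, Cd180, Ly86 and Irak4 passed in all 3, with Cd180 lower and the others higher each time. Of the 11, 23 and 13 calls, 2, 11 and 7 held under every setting tried. With library weights 19 members were called for LPS, and without the term for the number series 3. The latter setting ended the LPS calls of Tlr1, Tlr7, Ly86, Ticam2, Irak2, Irak4, Tollip, Ripk2 and Mavs, the PolyI:C calls of Tlr8, Tlr9, Ly86, Irak1, Irak4, Ripk2 and Mavs and the CpG calls of Tlr2, Tlr7, Ly86 and Tbk1.

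**Figure D5:**
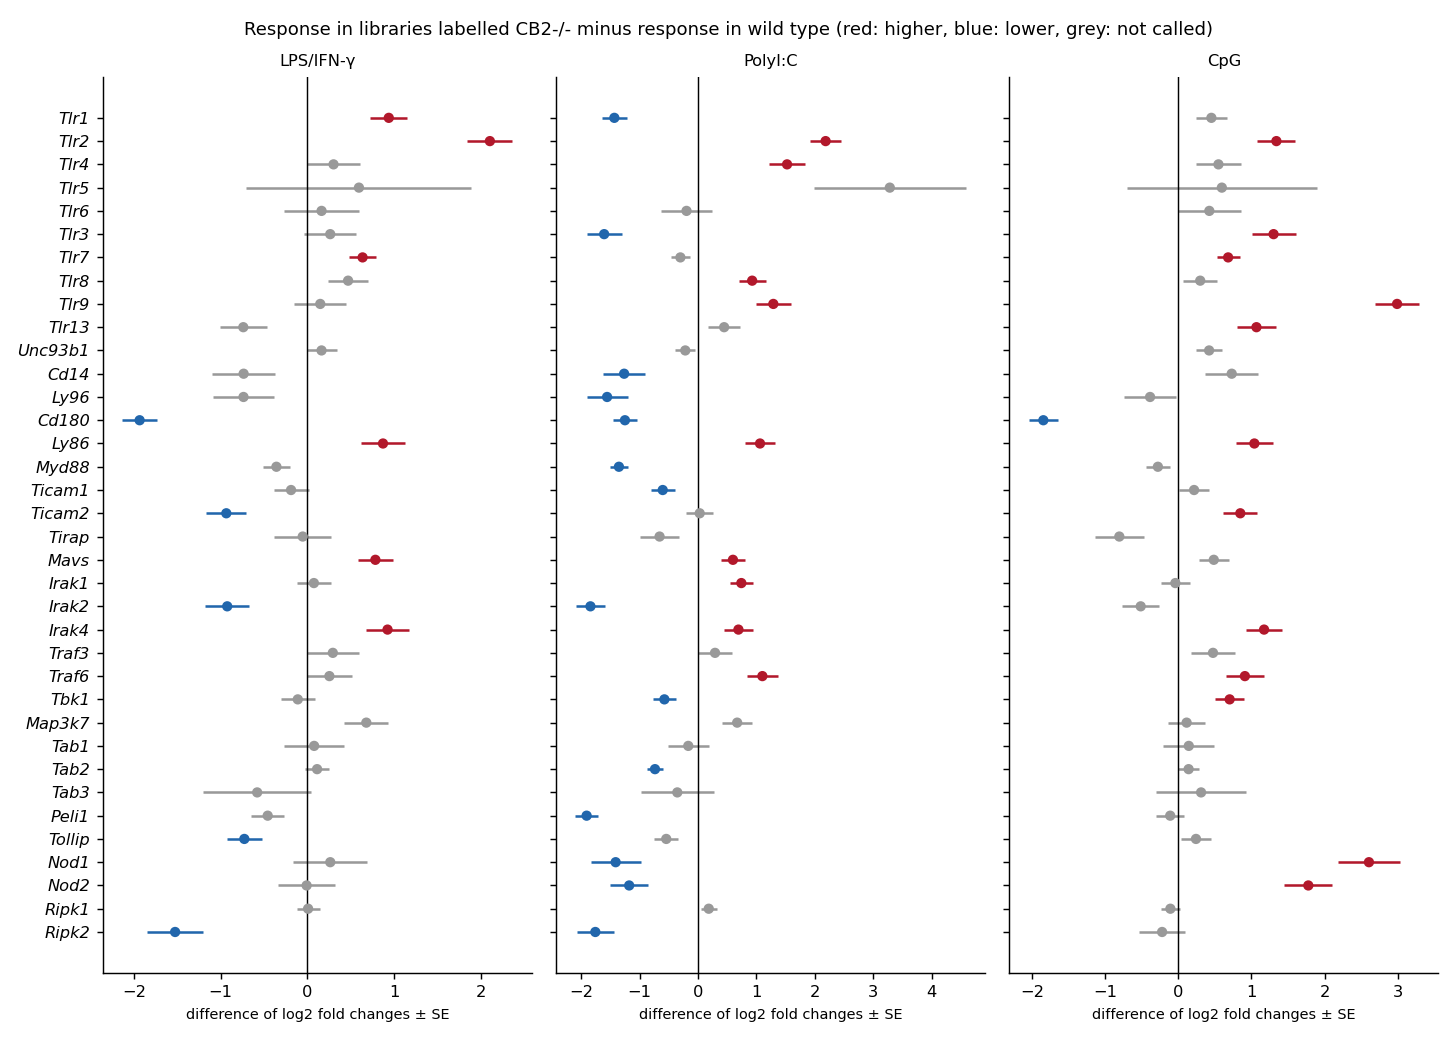
Difference ± SE between the log2 response in libraries labelled CB2-/- and that in wild type (x axis) for the 36 tested members (y axis, by role) with LPS plus IFN-γ, PolyI:C and CpG; red and blue are calls at an adjusted p under 0.05 (limma, BH), grey is not called. Tlr9 with CpG, at 2.99 ± 0.30, and Nod1 with CpG, at 2.61 ± 0.43, lie farthest right among the calls, and Cd180 is blue in all 3 panels.

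Stimuli were also compared with each other, which leaves out the unstimulated libraries. In wild type LPS and PolyI:C differed in 10 members (9.26% of all genes), a count of 17 with library weights and of 6 without LPS replicate 2. Also in wild type, LPS and CpG differed in 25 (32.8%), and PolyI:C and CpG in 21 (30.1%). Among libraries labelled CB2-/- the counts were 17 (11.9%), 14 (10.2%) and 14 (12%), and the second was 9 without LPS replicate 1 or CpG replicate 2. In wild type all 6 endosomal genes were higher with PolyI:C than with CpG, Tlr3 by 4.54 ± 0.21 and Tlr13 by 2.42 ± 0.19 (adjusted p = 1.97e-14 and 3.41e-10, limma, BH), but Unc93b1 turned to -0.13 with quantile scaling. Against LPS, CpG left Tlr9 lower by 3.16 ± 0.21 (adjusted p = 1.41e-11, limma, BH) in wild type, and Nod1 by 4.85 ± 0.30 (adjusted p = 3.58e-12, limma, BH), both given as LPS minus CpG. For libraries labelled CB2-/- the Nod1 value was 2.51 ± 0.30, adjusted p = 1.39e-06, limma, BH and that of Tlr9 did not pass (0.32 ± 0.21, adjusted p = 0.472, limma, BH). Quantile scaling moved the median of all genes by -0.28 for LPS against CpG and by -0.15 for PolyI:C against CpG in wild type.

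Per kilobase of merged exons, which allows levels of different genes to be compared, Cd14 stood first among the receptors and co-receptors of unstimulated wild-type replicates 1 to 3, at 6202 ± 1343 normalised counts per kb (SD, n = 3). Tlr2 (1157 ± 14.3) and Ly86 (974 ± 83.1) came next, then Tlr7 (673 ± 27.8), Tlr13 (409.7 ± 64.1), Tlr8 (294 ± 3.95) and Cd180 (180.4 ± 24.9). Tlr4 (139.7 ± 2.86), Tlr1 (131 ± 19.7), Tlr9 (118 ± 12.9) and Ly96 (112 ± 21.4) formed a run in which Tlr1, Tlr9 and Ly96 overlapped over libraries and Tlr4 lay above Tlr9. Below them were Tlr3 (64.9 ± 4.29) and Tlr6 (48.8 ± 14.0), whose ranges overlapped, and Nod2 (28.7 ± 8.93) and Nod1 (27.9 ± 6.87), which could not be ranked. Tlr5 was last at 3.46 ± 4.17, a mean set by 1 library.

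A further list of 56 genes of the same pathways, all tested, gives the surroundings of the members. With LPS, PolyI:C and CpG, 38, 33 and 21 rose in wild type, where 21.7%, 21.2% and 16.5% of all tested genes did, and 3, 6 and 14 fell (18%, 19.9% and 19.6% of all). In libraries labelled CB2-/- 34, 20 and 17 rose (12.8%, 5.11% and 6.82% of all) and 4, 2 and 6 fell (10.9%, 3.44% and 7.44%). Between the resting genotypes 16 were higher and 1 lower (6.25% and 3.65% of all). Traf1, a signalling adaptor of TNF receptors, was among the 2 highest in each response, at 7.84 ± 0.29, 7.62 ± 0.29 and 5.06 ± 0.29 in wild type and 4.15 ± 0.29, 2.15 ± 0.29 and 3.48 ± 0.29 in libraries labelled CB2-/- (largest adjusted p 1.89e-05, limma, BH). Beside it stood Zbp1, a sensor of Z-form nucleic acids, with LPS and PolyI:C in wild type (4.08 ± 0.25 and 4.07 ± 0.25), and Nfkbiz, an atypical IκB protein, with CpG in both genotypes (4.52 ± 0.13 and 3.51 ± 0.13). Among libraries labelled CB2-/- it was Nlrc5, a regulator of MHC class I genes, with LPS (2.86 ± 0.23) and Irak3, an inhibitory IRAK, with PolyI:C (1.77 ± 0.14). The largest falls were those of Peli2, a relative of Peli1, with all 3 stimuli in wild type (-2.75 ± 0.51, -3.10 ± 0.51 and -2.60 ± 0.51) and with LPS and CpG in libraries labelled CB2-/- (-1.62 ± 0.51 and -1.69 ± 0.51). Next to it were Card9, an adaptor of C-type lectin receptors, with LPS (-0.89 ± 0.19), Slc15a4, an endolysosomal transporter, with PolyI:C (-1.26 ± 0.19) and Tmem173, which encodes STING, with CpG (-1.42 ± 0.25) in wild type. For libraries labelled CB2-/- they were the scavenger receptor Cd36 with LPS and PolyI:C (-1.45 ± 0.20 and -0.66 ± 0.20) and Tmem173 with PolyI:C and CpG (-0.82 ± 0.25 and -1.48 ± 0.25). All of these passed the test in the same fit.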

How the data were processed

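Gene-level normalised counts of 27 bulk RNA-seq libraries were used as the authors deposited them, a signal that is never negative. CASAVA 1.8, kallisto and DESeq2 are named in the submitters' processing notes, with no role or order, and the genome build is not given in the sources used here. In each library 45.9 to 67.7% of the low values came out as whole multiples of 1 step (tolerance 0.01), so whole reads were not recovered and no count test was run. The authors' batch-corrected values, deposited as a score on an unstated scale, served only as an alternative. Groups came from the labels, and replicate numbers in record order pair nothing. No 2 libraries held identical values.

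Of 23995 genes, the 14668 that reached 10 in no fewer than 3 libraries were tested on the scale log2(value + 1). A single linear model, with terms for group and number series, was fitted to the 27 libraries with limma 3.58.1 (R 4.3.3). The two-sided tests came from lmFit, contrasts.fit and eBayes (trend), with Benjamini-Hochberg adjustment over every tested gene and a threshold of 0.05 for the adjusted p. The fit was run on simulated counts with changes set in the wild-type LPS libraries alone. These counts held no difference between the number series, so that run cannot speak to the series or to the spread in the real libraries. No p was adjusted over the members alone. The members, the other lists and the motifs were chosen with earlier results of these data known. Values in every library are given for Tlr4, Tlr3, Tlr9, members past the threshold in the same direction in all 6 responses, and those past it between resting genotypes or in a difference of responses. Of the 56 further pathway genes, the 2 highest and 2 lowest changes per response are named, among those past the threshold whose higher group had a mean of 100 or more. Of 23995 gene identifiers 23933 matched GENCODE M21, compared without their version. Sequences are from RefSeq for GRCm38.p6, to which members were matched by symbol. A further motif is not reported here. The plots used Python 3.11.15, pandas 2.3.3 and matplotlib 3.10.9. Alternatives varied the pseudocount (0.1, 5), the filter (none, 50), the scaling, the series term, the libraries in the fit, library weights and the input table. The batch-corrected table was fitted without the series term. Each library of a comparison was also left out once. Shares of all tested genes that were called come from the main fit alone and were not computed for these alternatives.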

Additional observations from a re-analysis of the deposited data

Results flagged for a closer look

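Among the 6 unstimulated wild-type libraries, the highest Tlr5 value, 39.5 in replicate 1, stood far from the other 5 by Dixon's criterion, which chance meets in about 1 of 20 groups. The criterion was applied to each of the 37 members, and the other 5 Tlr5 values were low, at 1.53 to 8.01.

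The remaining results were set apart because the response differed between the genotypes by a direct test (limma, BH), given as the log2 response in libraries labelled CB2-/- minus that in wild type, 3 libraries in each of the 4 groups compared. With LPS and IFN-γ the response was higher for Tlr1 (0.94), Tlr2 (2.11), Tlr7 (0.64), Ly86 (0.87), Irak4 (0.93) and Mavs (0.79), and lower for Cd180 (-1.94), Ticam2 (-0.94), Irak2 (-0.92), Tollip (-0.73) and Ripk2 (-1.53). With PolyI:C it was higher for Tlr2 (2.18), Tlr4 (1.52), Tlr8 (0.93), Tlr9 (1.29), Ly86 (1.06), Irak1 (0.74), Irak4 (0.69), Traf6 (1.10) and Mavs (0.60), and lower for Tlr1 (-1.43), Tlr3 (-1.60), Cd14 (-1.26), Ly96 (-1.55), Cd180 (-1.25), Myd88 (-1.35), Ticam1 (-0.60), Irak2 (-1.84), Tbk1 (-0.57), Tab2 (-0.74), Peli1 (-1.90), Nod1 (-1.41), Nod2 (-1.18) and Ripk2 (-1.76). With CpG it was higher for Tlr2 (1.34), Tlr3 (1.30), Tlr7 (0.68), Tlr9 (2.99), Tlr13 (1.07), Ly86 (1.04), Ticam2 (0.85), Irak4 (1.17), Traf6 (0.91), Tbk1 (0.70), Nod1 (2.61) and Nod2 (1.78), and lower for Cd180 (-1.85). Number series and genotype cannot be told apart in these differences.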

How the results depend on the processing

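Quantile scaling reversed Unc93b1 with LPS (-0.63) and PolyI:C (-0.31) in wild type, in the PolyI:C difference (0.56) and for wild-type LPS and PolyI:C, each set against CpG (-0.45 and -0.13), and for the former pair in libraries labelled CB2-/- (-0.33). It also reversed Ripk1 with LPS (-0.049) and Tlr7 with PolyI:C (-0.22) in wild type, and Tlr7 in the PolyI:C difference (0.48). Without the series term Tlr7 was 0.042 with LPS in wild type and -0.080 between resting genotypes. In the batch-corrected table, also fitted without the series term, Map3k7 with CpG in wild type was -0.24. Tlr1 and Tlr7 between resting genotypes were -0.42 and -0.088 there. The cause was not tested. Calls became 15 for CpG in wild type, 4 between resting genotypes and 4 for the number series in fits of the compared groups alone, which hold fewer libraries. Resting calls were 17 in the batch-corrected table. Without the series term they were 7 for PolyI:C in libraries labelled CB2-/- and 3 for the LPS difference, and with library weights 19 for the LPS difference and 17 for LPS against PolyI:C in wild type. With 1 library left out, calls ranged from 7 to 16 between resting genotypes, 6 to 8 for LPS against PolyI:C in wild type, 9 to 11 for LPS against CpG in libraries labelled CB2-/- and 8 to 15 for the number series, and Tlr9 with CpG in libraries labelled CB2-/- from -0.026 to 0.19. The share of all genes called was not computed under these settings. Depth in reads is unknown. No paired analysis was possible because replicate numbers follow record order. Of 10639 values recomputed under 37 settings, 9708 kept their direction and side of the threshold or moved within the set limit, 404 lost a call, 215 gained one, 298 moved and 14 reversed.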
